A study of Mus musculus with 6 samples.

Results

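The genes described here are 49 that copy the genome in S phase, from the proteins that mark replication origins to the enzymes that supply nucleotides. They were compared between glial cells with and without mutant histone H3.3. The list was given by symbol and its rule used no measured value, but it was chosen with earlier results of these data known. Each gene was found on the array through the RefSeq accession of its probes. All 49 were found and all 49 were tested, among 14894 genes tested in all and 22907 genes that the accessions named. Both groups are OS3, a glial line immortalized with SV40 and established from the brain of newborn C3H/HeN mice (male C3H in the labels). WT cells are OS3 with the empty vector, and IG27 cells are OS3 with a pcDNA3.1 plasmid of H3f3a that carries the K27M mutation (OS3-H3F3A_K27M). RNA was taken after 2 days of culture in medium with serum, insulin and added glucose from 3 dishes per group, and each sample was hybridized to 1 single-color Agilent array. The methods state that clones were picked by drug selection, and the labels do not say which clone was used, so the mutation and the clone cannot be told apart. The replicates are dishes of a line, so p-values measure the spread between dishes only.

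As background, replication starts where the origin recognition complex (ORC) binds DNA and, with Cdc6 and Cdt1, loads the MCM helicase in G1, a step called licensing that geminin (Gmnn) blocks later in the cycle. The kinase Cdc7 then acts on the loaded helicase, and Cdc45 and the GINS complex join it to form the active enzyme that unwinds DNA. Polymerase alpha and its primase start each new strand, polymerases delta and epsilon extend it, the sliding clamp Pcna holds them on DNA and replication factor C (Rfc) loads the clamp. Many of these genes are transcribed under E2F factors, which RB proteins restrain, and SV40 large T antigen is known to bind RB proteins. The arrays average over cells at all stages of the cycle. A change in the share of cells in S phase and a change in RNA per cell, up or down, thus cannot be told apart.

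On the 5 arrays with complete scanner output, 58.8% to 61.2% of 56605 probes were well above background, a flag of the scanner software, and no spot was saturated. The values of IG27 replicate 2 came from the authors' value table, because its deposited scanner output ends after 285 spots. All 74 probes of the replication genes were well above background on all 5 of those arrays, so the filter on dim probes removed none of the 49 genes and none passed through 1 group alone. Values are log2 intensities minus the 75th percentile of the array, for the brightest probe of a gene, and a change is the IG27 mean minus the WT mean. Values of single arrays follow the order of replicates 1 to 3. Across the members, arrays correlated with Pearson coefficients from 0.995 to 0.997 among WT arrays, from 0.997 to 0.998 among IG27 arrays and from 0.959 to 0.969 between the groups (genes are not independent replicates). Of 7 astrocyte markers, 5 were well above background in each group, and 4 of them (*Gfap*, *S100b*, *Aldh1l1* and *Glul*) in both. Of 6 markers of the oligodendrocyte lineage, 5 were above background in WT cells and 6 in IG27 cells. The neuronal marker *Rbfox3* was not well above background in either group. Of 5 neuronal markers 2 were above background in WT cells and 3 in IG27 cells, of 3 endothelial markers 1 and 2, of 5 microglial markers 3 and 4, and of 5 fibroblast markers 2 and 3. The astrocyte markers moved in both directions. *S100b* rose by 4.93 on the log2 scale (limma adjusted p = 1.48e-07), and *Slc1a3*, not well above background in WT cells, was at least 20.6-fold higher in IG27 cells, against the dimmest signal well above background. *Aldh1l1* gave -1.72 (limma adjusted p = 0.00485), and *Gfap* gave -1.07 at its brightest probe (limma adjusted p = 6.93e-05) and 0.19 at its other probe (limma adjusted p over probes = 0.0236). The part of such markers in the changes below was not tested.

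Replication genes moved in both directions and, at their brightest probes, by less than 2-fold. Of the 49, 16 were higher and 17 were lower in IG27 cells (limma, two-sided, adjusted p under 0.05 over all genes), beside 30.5% higher and 40.0% lower of all genes tested. In shares, 32.7% of the members were higher and 34.7% lower. Together 33 of 49 were called, beside 70.5% of all genes. The groups did not overlap in 37 of 49 members (75.5%), beside 75.7% of all genes. The median log2 change of the members was -0.053, and that of all genes was -0.069. None of the 49 was called with at least a 2-fold change at its brightest probe, beside 23.1% of all genes. A dimmer probe of *Orc4* gave -1.07. The sets differ, since all 49 members but only 13536 of the 14894 genes were well above background in both groups. An unadjusted limma p under 0.05 was found for 36 of the 49, beside 10852 of all 14894 genes. The median size of the change, whatever its direction, was 0.31 in the members and 0.47 over all genes on the log2 scale. Members ranged from -0.94 (*Orc6*) to 0.86 (*Orc3*).

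**Figure D1:**
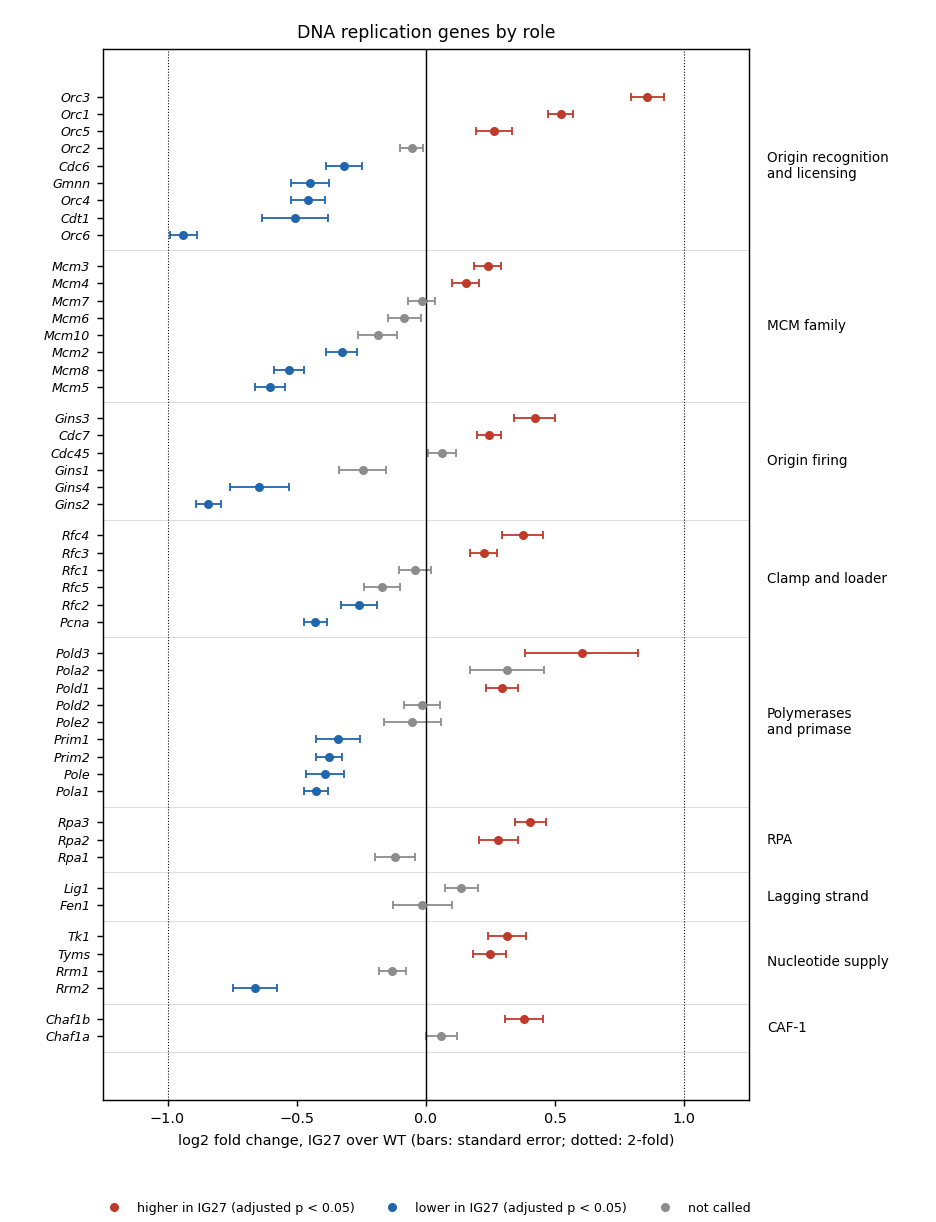
Each point is the log2 change of a replication gene, IG27 over WT, with its standard error from limma (3 arrays per group), grouped by role. Red points were higher and blue points lower in IG27 (adjusted p under 0.05), grey points were not called, and the 49 points lie between -0.94 and 0.86, inside the dotted lines at 2-fold.

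Most calls of a rise depended on how the arrays were set to a common level. With each array scaled to its median in place of its 75th percentile, all genes had a median of -0.31 and the members one of -0.29. The members called became 2 higher and 28 lower of 49, beside 3024 higher and 7954 lower of all 14894 genes. Of the calls, 6.7% were higher in the members and 27.5% over all genes. Under quantile normalization the members called were 18 higher and 16 lower, beside 5029 and 5789 of all genes. The median of the members was then 0.080. Of the 16 genes called higher, *Orc1* and *Orc3* were called higher under all 3 scalings. Of the 17 called lower, 16 were called lower under all 3, and *Cdt1* was not called under quantile normalization (adjusted p = 0.0572 from limma). Median scaling moved every gene down by the same amount, such as *Orc1* from 0.52 to 0.28 and *Mcm5* from -0.60 to -0.84. It could thus undo rises but hardly falls, and of the 3 scalings only quantile normalization put the falls to a test. Under it *Prim1* (0.0499), *Mcm2* (0.0443), *Cdc6* (0.0390) and *Rfc2* (0.0387) had limma adjusted p-values near the threshold. Of the genes called higher, *Mcm4* and *Rfc3* had negative values under median scaling (-0.086 and -0.016). A change in the ratio of a pair of genes within the arrays does not depend on a scaling by a constant, so such ratios are given below for subunits that moved apart. The pairs were picked after their values were seen, and their ratios are a description with no test.

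**Figure D2:**
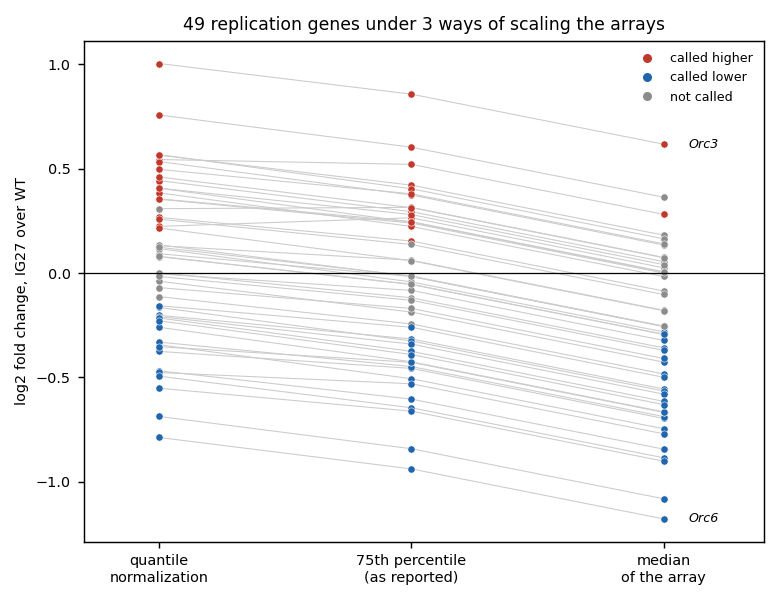
Log2 fold changes of the 49 replication genes, IG27 over WT, under quantile normalization, the 75th percentile and the array median, with a grey line for each gene. Red is called higher, blue called lower and grey not called (adjusted p under 0.05, limma); calls went from 18 higher and 16 lower at the left to 2 higher and 28 lower at the right, and *Orc3* and *Orc6* stayed at the ends.

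The counts by role below rest on few genes each and describe them only. Over all genes 30.5% were higher and 40.0% lower, and under median scaling 3024 were higher and 7954 lower of 14894. Among the genes of origin recognition and licensing, 3 of 9 were higher and 5 lower, and under median scaling 2 were higher and 6 lower. The 6 ORC subunits split. *Orc3* encodes a core subunit of the complex, and its normalized log2 intensity was 2.31, 2.19 and 2.37 on the WT arrays and 3.21, 3.11 and 3.12 on the IG27 arrays. Every IG27 array was above every WT array, a log2 change of 0.86 ± 0.064 (SE, limma adjusted p = 4.61e-05), and its other probes gave 0.76 and 0.82. *Orc6*, the small subunit needed for helicase loading, read 4.35, 4.35 and 4.41 on the WT arrays and 3.49, 3.43 and 3.37 on the IG27 arrays. Every IG27 array was well below the WT arrays, a log2 change of -0.94 ± 0.053 (SE, limma adjusted p = 1.39e-05). The log2 ratio of *Orc3* over *Orc6* thus moved by 1.80 between the groups, with an SD of 0.066 within WT and 0.034 within IG27 (n = 3 each). *Orc1*, the ATPase that is degraded and remade each cycle, read -0.092, -0.080 and 0.0100 on the WT arrays and 0.46, 0.49 and 0.45 on the IG27 arrays. Its IG27 values were also above all WT values, a log2 change of 0.52 ± 0.050 (SE, limma adjusted p = 0.000145).

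*Orc4*, another ATPase-fold subunit, had a log2 change of -0.46 ± 0.066 (SE, limma adjusted p = 0.00102), and its other probes gave -1.07 and -0.48. *Orc5* was higher by less, with a log2 change of 0.27 ± 0.070 (SE, limma adjusted p = 0.0145), and lost its call under median scaling (adjusted p = 0.806 from limma). A block for the slide row also lost it. *Orc2* gave -0.054 at its brighter probe and 0.28 at the dimmer, neither of them called. Of the ORC subunits, then, 3 were higher, 2 were lower and 1 was not called, and after median scaling *Orc1* and *Orc3* remained higher while *Orc2* was called lower.

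*Cdt1*, its inhibitor *Gmnn* and *Cdc6* were each called lower. *Cdt1*, which brings the MCM helicase to ORC, read 3.82, 3.78 and 3.39 on the WT arrays and 3.28, 3.13 and 3.07 on the IG27 arrays. WT replicate 3 was the lowest WT array, but the groups did not overlap, with a log2 change of -0.51 ± 0.13 (SE, limma adjusted p = 0.0123). The call of *Cdt1* was lost under quantile normalization (limma adjusted p = 0.0572) and with normexp background correction. This gene lies on chromosome 8, which is taken up below. *Gmnn*, the geminin gene whose product binds and blocks Cdt1, read 4.80, 4.62 and 4.82 on the WT arrays and 4.37, 4.27 and 4.25 on the IG27 arrays. All IG27 arrays were below all WT arrays, with a log2 change of -0.45 ± 0.074 (SE, limma adjusted p = 0.00189). The ratio of *Cdt1* over *Gmnn* moved by -0.058 on the log2 scale, less than its SD within WT of 0.31 (n = 3). *Cdc6*, the ATPase that loads the helicase with ORC, had a log2 change of -0.32 ± 0.070 (SE, limma adjusted p = 0.00699), and its other probe gave -0.32.

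Of the 8 MCM genes, 2 were higher and 3 were lower (0 and 6 under median scaling). The helicase itself is a ring of the products of *Mcm2* to *Mcm7*. *Mcm5* had the largest fall among them and read 4.50, 4.65 and 4.58 on the WT arrays and 3.92, 3.98 and 4.02 on the IG27 arrays. The IG27 arrays lay well below the lowest WT array, with a log2 change of -0.60 ± 0.059 (SE, limma adjusted p = 0.000164). *Mcm2* read 3.84, 3.69 and 3.79 on the WT arrays and 3.41, 3.42 and 3.51 on the IG27 arrays, and its groups did not overlap either, with a log2 change of -0.33 ± 0.060 (SE, limma adjusted p = 0.00322). *Mcm3* went the other way and read 5.19, 5.17 and 5.28 on the WT arrays and 5.47, 5.47 and 5.42 on the IG27 arrays. Its log2 change was 0.24 ± 0.052 (SE, limma adjusted p = 0.00621), and its other probes gave 0.25 and 0.30, but under median scaling it was not called (adjusted p = 0.998 from limma).

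The log2 ratio of *Mcm3* over *Mcm5* moved by 0.84, against an SD of 0.099 within WT and 0.075 within IG27 (n = 3 each). *Mcm4* was called higher with a log2 change of 0.15 ± 0.052 (SE, limma adjusted p = 0.0363), and this call was lost when any array but WT replicate 3 was left out, and with a block for the replicate number. *Mcm6* (-0.083) and *Mcm7* (-0.016) were not called, and their IG27 and WT arrays overlapped. The genes of the ring thus had log2 changes from -0.60 to 0.24, within a ring that holds each of the 6 in equal number. Of the family members outside the ring, *Mcm8*, a helicase of recombination repair, read 0.83, 0.73 and 0.86 on the WT arrays and 0.23, 0.29 and 0.32 on the IG27 arrays. Its IG27 values were well below its WT values, with a log2 change of -0.53 ± 0.057 (SE, limma adjusted p = 0.000251). *Mcm10*, which helps to activate the helicase, had -0.19 (adjusted p = 0.0676 from limma).

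**Figure D3:**
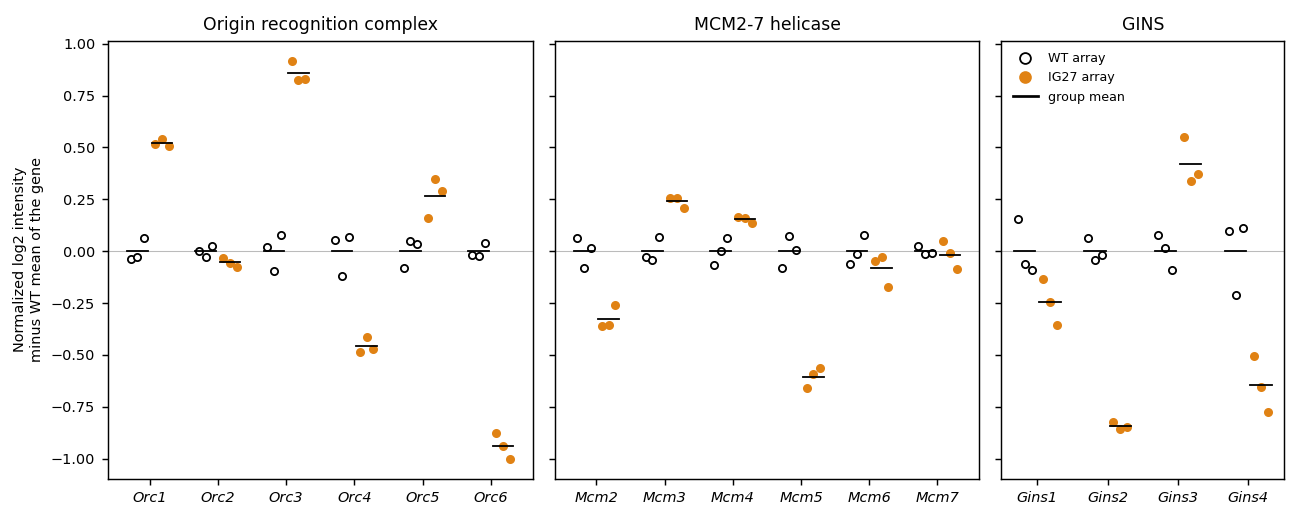
Normalized log2 intensity of each array minus the WT mean of the gene, for the subunits of the origin recognition complex, the MCM ring and GINS. Open circles are WT arrays, filled circles IG27 arrays and lines group means (n = 3 each); within each complex, subunits lie on both sides of the WT level, with *Orc3*, *Mcm3* and *Gins3* above it and *Orc6*, *Mcm5* and *Gins2* below.

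Among the 6 genes of origin firing, 2 were higher and 2 were lower, and under median scaling none was higher and 3 were lower. GINS has 4 subunits in equal number, and its genes split as well. *Gins2* read 3.95, 3.84 and 3.87 on the WT arrays and 3.06, 3.03 and 3.04 on the IG27 arrays. The IG27 arrays were far below all WT arrays, with a log2 change of -0.84 ± 0.050 (SE, limma adjusted p = 1.67e-05), and its other probe gave -0.64. *Gins4* read 3.40, 3.09 and 3.41 on the WT arrays and 2.80, 2.65 and 2.53 on the IG27 arrays, also without overlap, with a log2 change of -0.65 ± 0.11 (SE, limma adjusted p = 0.00252). *Gins3* read 3.86, 3.80 and 3.69 on the WT arrays and 4.34, 4.12 and 4.16 on the IG27 arrays. Here every IG27 array was above every WT array, with a log2 change of 0.42 ± 0.079 (SE, limma adjusted p = 0.00337), although median scaling lost the call (adjusted p = 0.0638 from limma). The log2 ratio of *Gins3* over *Gins2* moved by 1.26 and that of *Gins3* over *Gins4* by 1.07. The SD of the second ratio within WT was 0.21 (n = 3), and that of the first 0.068.

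*Gins1* just missed the threshold, with a log2 change of -0.24 ± 0.091 (SE, limma adjusted p = 0.052). It was called lower in 7 of the alternative settings, among them median scaling and the fit without IG27 replicate 1. Its other probe gave -0.16 (limma adjusted p over probes = 0.0213). *Cdc7*, the catalytic subunit of the kinase that fires origins, was higher, with a log2 change of 0.24 ± 0.046 (SE, limma adjusted p = 0.0033). Median scaling lost this call (adjusted p = 0.949 from limma). *Cdc45* was not called at its brighter probe (0.062), where the groups overlapped. Its dimmer probe gave 0.24 (limma adjusted p over probes = 0.0191), and with the mean of probes the gene was called higher.

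Of the clamp and the clamp loader, 2 of 6 genes were higher and 2 lower (0 and 4 under median scaling). *Pcna*, the clamp, read 6.04, 5.98 and 6.01 on the WT arrays and 5.61, 5.58 and 5.56 on the IG27 arrays. The IG27 arrays were tightly grouped below the WT arrays, with a log2 change of -0.43 ± 0.045 (SE, limma adjusted p = 0.000241). The loader subunits moved in different directions. *Rfc4* read 3.63, 3.53 and 3.49 on the WT arrays and 4.05, 3.94 and 3.79 on the IG27 arrays, above WT on every IG27 array, with a log2 change of 0.37 ± 0.081 (SE, limma adjusted p = 0.00632), and its other probe gave 0.39. *Rfc3* was higher as well (0.22, adjusted p = 0.00831 from limma). *Rfc2* was lower (-0.26, adjusted p = 0.0153 from limma), a call lost without WT replicate 3, IG27 replicate 2 or IG27 replicate 3. *Rfc1* (-0.042) and *Rfc5* (-0.17) were not called, and the last is a gene whose groups did not overlap. The log2 ratio of *Rfc4* over *Rfc2* moved by 0.63, against an SD of 0.11 within WT (n = 3).

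Of 9 polymerase and primase genes, 2 were higher and 4 lower, and under median scaling none was higher and 6 were lower. Of the 4 genes for the enzyme that starts strands, 3 were lower. *Pola1*, the catalytic subunit of polymerase alpha, read 3.71, 3.75 and 3.77 on the WT arrays and 3.30, 3.31 and 3.36 on the IG27 arrays. No IG27 array reached a WT array, with a log2 change of -0.42 ± 0.046 (SE, limma adjusted p = 0.000275), and its other probe gave -0.51. *Prim1*, the catalytic primase subunit, had a log2 change of -0.34 ± 0.086 (SE, limma adjusted p = 0.0122). *Prim2*, its partner, had one of -0.37 ± 0.050 (SE, limma adjusted p = 0.000732). The accessory subunit *Pola2* had a log2 change of 0.31 that was not called (adjusted p = 0.0922 from limma), with WT replicate 1 the lowest array.

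The catalytic subunits of the polymerases that extend strands moved apart. *Pold1*, of polymerase delta, read 3.77, 3.81 and 3.77 on the WT arrays and 4.18, 4.08 and 3.99 on the IG27 arrays. Its IG27 values were higher without overlap, with a log2 change of 0.29 ± 0.061 (SE, limma adjusted p = 0.00533). *Pole*, of polymerase epsilon, read 3.78, 3.79 and 3.81 on the WT arrays and 3.47, 3.49 and 3.25 on the IG27 arrays. Its IG27 values were lower without overlap, with a log2 change of -0.39 ± 0.074 (SE, limma adjusted p = 0.00349). The log2 ratio of *Pold1* over *Pole* moved by 0.68, against an SD of 0.030 within WT and 0.076 within IG27 (n = 3 each). Median scaling lost the call of *Pold1* (adjusted p = 0.469 from limma) and kept that of *Pole*, and a block for the slide row also lost *Pold1*.

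*Pold3*, an accessory subunit of polymerase delta, read 2.29, 3.01 and 3.12 on the WT arrays and 3.40, 3.37 and 3.46 on the IG27 arrays. WT replicate 1 stood well below the other WT arrays, so its log2 change of 0.60 ± 0.22 (SE, limma adjusted p = 0.0462) carries a large error. Without that array the log2 change was 0.34 (limma adjusted p = 0.00595). The call was lost when WT replicate 2 or any IG27 array was left out, whereas its dimmer probe changed by 0.45, with an adjusted p of 0.000406 in limma over probes. *Pold2* (-0.016) and *Pole2* (-0.053) were not called, and their groups overlapped.

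Of the single-strand binding protein RPA, *Rpa3* read 3.47, 3.33 and 3.50 on the WT arrays and 3.87, 3.84 and 3.81 on the IG27 arrays, higher without overlap, with a log2 change of 0.40 ± 0.061 (SE, limma adjusted p = 0.00123). *Rpa2* was higher as well (0.28, adjusted p = 0.0162 from limma), a call lost without IG27 replicate 3, and *Rpa1*, the large DNA-binding subunit, was not called (-0.12). Under median scaling no RPA gene was higher and *Rpa1* was lower. For the lagging strand, neither the flap nuclease *Fen1* (-0.014) nor the ligase *Lig1* (0.14) was called in limma, though a dimmer *Lig1* probe of another transcript gave 0.37. Of CAF-1, which deposits histones behind the fork, *Chaf1b* was higher (0.38, adjusted p = 0.00352 from limma, lost under median scaling). *Chaf1a* was not called (0.059).

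Of the 4 genes of nucleotide supply, 2 were higher and 1 was lower (0 and 2 under median scaling). *Rrm2*, the S-phase subunit of ribonucleotide reductase, read 5.35, 5.04 and 5.20 on the WT arrays and 4.53, 4.52 and 4.55 on the IG27 arrays. All IG27 arrays were at nearly the same level, below every WT array, with a log2 change of -0.66 ± 0.085 (SE, limma adjusted p = 0.000594). *Rrm1*, the large subunit, had a log2 change of -0.13 that was not called, although its groups did not overlap. The thymidylate enzymes were higher. *Tk1*, thymidine kinase, read 3.88, 3.90 and 3.74 on the WT arrays and 4.27, 4.11 and 4.08 on the IG27 arrays, with a log2 change of 0.31 ± 0.075 (SE, limma adjusted p = 0.00957). The other probe of *Tk1* gave 0.17 and was not called (limma adjusted p over probes = 0.0599). *Tyms*, thymidylate synthase, had a log2 change of 0.25 ± 0.064 (SE, limma adjusted p = 0.0139), and its other probe gave 0.21. Both calls were lost under median scaling, and that of *Tk1* also with a block for the slide row. The log2 ratio of *Tk1* over *Rrm2* moved by 0.98, and that of *Tyms* over *Rrm2* by 0.91, with SDs within WT of 0.19 and 0.100 (n = 3).

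Several of the largest falls shared a chromosome. The 6 members on chromosome 8 were *Orc6*, *Cdt1*, *Mcm5*, *Gins2*, *Gins3* and *Gins4*, and 5 of them were lower, with a median log2 change of -0.62. All 768 tested genes of that chromosome had a median of -0.67, and 74.2% of them were lower. Among the 43 members on other chromosomes, 15 were higher and 12 lower, with a median of -0.016. Measured from the median of their chromosome, *Orc6* (-0.27) and *Gins2* (-0.17) stayed below 0. By the same measure *Cdt1* (0.16), *Mcm5* (0.065) and *Gins4* (0.024) were above 0, and *Gins3* stood at 1.09. Of all members *Gins3* was farthest from its chromosome's median.

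Elsewhere, *Pola1* on chromosome X, where all genes had a median of -0.59, stood at 0.17 from it. The 3 members on chromosome 4 were *Orc1*, *Orc3* and *Rpa2*, all higher, and that chromosome had a median of 0.33. From it *Orc3* stood at 0.52, *Orc1* at 0.19 and *Rpa2* at -0.054. *Rrm2* (-0.64) and *Rpa3* (0.62) were far from the medians of their own chromosomes, 12 and 6, in opposite directions. The part of the chromosome shifts in the members' changes was not tested.

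**Figure D4:**
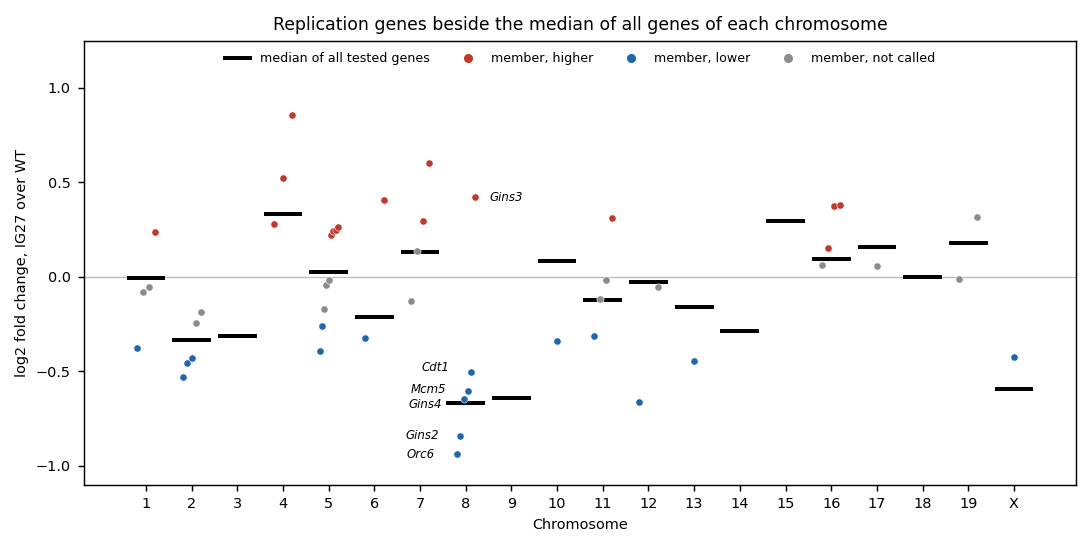
Log2 fold changes of the 49 replication genes by chromosome (points), beside the median of all tested genes of that chromosome (black bars). Red members were higher, blue lower and grey not called; on chromosome 8, 5 of 6 members lie between -0.94 and -0.51, around the bar at -0.67, and *Gins3* lies at 0.42.

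The promoters of members that moved apart are shown to set their sequence beside their change. RefSeq promoter windows (GRCm38.p6) were found for 41 of the 49, and not for *Gmnn*, *Gins1*, *Gins2*, *Gins4*, *Mcm4*, *Pole*, *Prim2* and *Rfc2*. Each sequence below is the 250 bases before the transcription start, 5′ to 3′ on the strand of the gene. Capitals mark 2 motifs, searched on both strands. The E2F words are TTTCCCGC, TTTGGCGC, TTTCGCGC and TTTGCCGC, and the other motif is CCAAT, the core of NF-Y sites.
*Orc3* (chr4:34614943-34615192, minus strand, largest rise): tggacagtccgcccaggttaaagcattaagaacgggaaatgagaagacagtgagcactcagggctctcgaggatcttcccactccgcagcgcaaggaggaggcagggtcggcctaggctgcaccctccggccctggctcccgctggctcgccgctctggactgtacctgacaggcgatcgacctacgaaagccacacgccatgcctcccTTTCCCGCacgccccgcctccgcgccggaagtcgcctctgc
*Orc6* (chr8:85299382-85299631, plus strand, largest fall): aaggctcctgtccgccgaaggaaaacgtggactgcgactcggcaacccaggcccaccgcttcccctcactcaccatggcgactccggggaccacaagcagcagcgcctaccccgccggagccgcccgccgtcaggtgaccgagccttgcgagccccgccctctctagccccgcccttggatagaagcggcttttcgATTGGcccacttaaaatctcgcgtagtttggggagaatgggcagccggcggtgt
*Mcm3* (chr1:20820313-20820562, minus strand, higher): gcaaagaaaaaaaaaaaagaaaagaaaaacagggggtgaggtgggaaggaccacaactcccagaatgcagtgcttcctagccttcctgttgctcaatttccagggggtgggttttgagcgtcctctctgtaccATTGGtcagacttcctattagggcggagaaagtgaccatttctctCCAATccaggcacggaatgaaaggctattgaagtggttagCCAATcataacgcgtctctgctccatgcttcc
*Mcm5* (chr8:75109259-75109508, plus strand, lower): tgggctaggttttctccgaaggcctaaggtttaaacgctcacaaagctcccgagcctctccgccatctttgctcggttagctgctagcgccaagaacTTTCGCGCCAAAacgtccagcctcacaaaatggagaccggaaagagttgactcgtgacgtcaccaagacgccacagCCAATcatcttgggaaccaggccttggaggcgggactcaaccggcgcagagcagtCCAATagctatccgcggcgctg
*Gins3* (chr8:95633309-95633558, plus strand, higher): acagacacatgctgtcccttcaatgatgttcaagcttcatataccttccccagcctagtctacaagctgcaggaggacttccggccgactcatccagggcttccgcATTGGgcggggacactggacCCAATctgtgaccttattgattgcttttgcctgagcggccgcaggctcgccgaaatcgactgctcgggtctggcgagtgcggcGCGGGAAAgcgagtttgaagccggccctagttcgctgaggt

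The window of *Orc3* holds an E2F word that begins 41 bases before the start, and that of *Gins3* holds one on the other strand that also begins 41 bases before it. *Mcm5* holds 2 E2F words, on opposite strands, that overlap each other at 153 and 149 bases before the start. No E2F word is in the windows of *Orc6* and *Mcm3*, which hold 1 and 3 CCAAT motifs. Over all members with a window, 9 of 41 (22.0%) held an E2F word, beside 1.9% of all 32851 windows of this length and 3.7% of tested genes with a window. Windows were found for 15 of the 16 members called higher but 11 of the 17 called lower, so the shares by call rest on uneven coverage. By call, an E2F word was in 4 of 15 members that were higher, 3 of 11 that were lower and 2 of 15 that were not called. CCAAT was in 25 of 41 members (61.0%), beside 33.8% of all windows and 40.3% of tested genes. It was in 6 of 15 higher, 9 of 11 lower and 10 of 15 uncalled members. These are matches of letters, and whether a factor binds there was not measured.

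Related genes from lists of the same pathway showed where the replication genes stood among cell-cycle genes. Their counts stand beside 30.5% higher and 40.0% lower over all genes, and 3024 higher and 7954 lower of 14894 under median scaling. Of 41 further replication factors, 16 were higher and 19 lower, with a median log2 change of -0.13, and under median scaling 7 were higher and 22 lower. The largest changes there were those of *Mcm9*, partner of *Mcm8* in recombination repair, with 1.64 ± 0.063 (SE, limma adjusted p = 2.75e-06), and of the helicase *Recql4*, with 1.11 ± 0.049 (SE, limma adjusted p = 4.71e-06). The partners *Mcm8* and *Mcm9* thus had opposite changes. Among the falls were *Rnaseh2a* of ribonuclease H2 (-1.03, adjusted p = 6.88e-06 from limma) and the fork protection gene *Tipin* (-0.98, adjusted p = 6.80e-05 from limma). *Rnaseh2a* lies on chromosome 8 and *Tipin* on chromosome 9, where all genes had medians of -0.67 and -0.64. From these medians *Rnaseh2a* stood at -0.36 and *Tipin* at -0.34.

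Of 13 genes of the E2F, DP and RB families, which govern transcription of replication genes, 1 was higher and 9 were lower, with a median of -0.52 (0 and 12 under median scaling). The activators *E2f1* (-0.075), *E2f2* (-0.12) and *E2f3* (-0.042) were the 3 not called. The others were lower, with *E2f4* at -1.35, *E2f5* at -1.23, *E2f6* at -0.95, *E2f7* at -1.03 and *E2f8* at -0.23. The dimer partners *Tfdp1* (-1.26) and *Tfdp2* (-0.93) were lower too. *Rb1* read 2.06, 1.93 and 2.19 on the WT arrays and 2.52, 2.44 and 2.44 on the IG27 arrays, higher without overlap, with a log2 change of 0.41 ± 0.076 (SE, limma adjusted p = 0.00335), a call lost under median scaling. Its relatives *Rbl1* (-0.40) and *Rbl2* (-0.52) were lower. *E2f4*, *Tfdp1* and *Rbl2* lie on chromosome 8 and *Tfdp2* on chromosome 9, where all genes had medians of -0.67 and -0.64.

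Of 8 cyclins, kinases and regulators of S phase, 1 was higher and 4 were lower (1 and 5 under median scaling). *Ccna2*, cyclin A, read 5.22, 5.24 and 5.32 on the WT arrays and 3.89, 3.92 and 3.83 on the IG27 arrays, far lower on every IG27 array, with a log2 change of -1.38 ± 0.053 (SE, limma adjusted p = 2.75e-06). *Cdc25a* (-0.83) and *Cdk1* (-0.45) were lower and *Fbxo5*, an inhibitor of the anaphase-promoting complex, was higher (0.47). Of 25 genes of mitosis, 1 was higher and 20 were lower, with a median of -0.48, and under median scaling none was higher and 22 were lower. The largest falls were those of *Ccnb2* (-1.15), *Bub1b* (-1.04), *Kif23* (-1.03) and *Cenpe* (-0.94). *Ccnb2* and *Kif23* lie on chromosome 9, *Bub1b* on chromosome 2 and *Cenpe* on chromosome 3. All genes of these chromosomes had medians of -0.64, -0.34 and -0.31. From its chromosome's median *Ccnb2* stood at -0.52, *Bub1b* at -0.70, *Kif23* at -0.39 and *Cenpe* at -0.63. *Cdc25a*, also on chromosome 9, stood at -0.19. The part of the chromosome shifts in these falls was not tested. The replication genes had 34.7% lower and 32.7% higher, beside 80.0% and 4.0% in the mitosis list and 40.0% and 30.5% of all genes. The lists were not tested against each other.

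**Figure D5:**
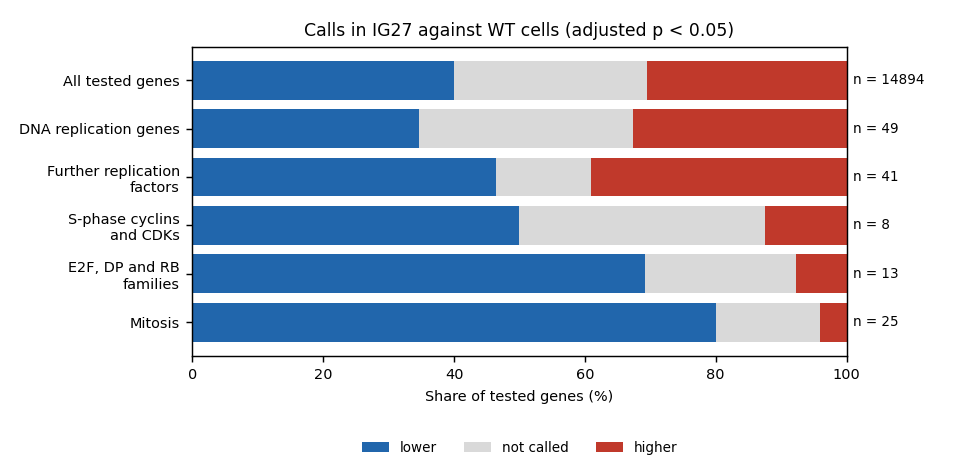
Shares of tested genes called lower (blue), not called (grey) and higher (red) in IG27 (limma, adjusted p under 0.05), for all genes, the replication genes and the related lists, with the number tested at the right. The replication genes have 34.7% lower and 32.7% higher, and the mitosis list 80.0% lower and 4.0% higher.

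Genes with several probes were checked for sign. Of 22 such members, 20 had all probes of 1 sign, and *Orc2* and *Mcm7*, neither of them called, had probes of both signs. The other 27 members rest on 1 probe each.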

How the data were processed

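RNA expression was measured on 6 single-color arrays, 3 of WT and 3 of IG27 cells, all on 1 slide. The authors read the slide with Feature Extraction (version 10.7.3.1 per the file headers, 9.1 in the submitters' processing notes) and deposited the processed signal, a linear intensity per spot without scaling between arrays, and a value table of the same intensity per probe. IG27 replicate 2 was taken from that table, whose values equaled those of 255 probes that could be compared (relative tolerance 1e-04). The columns of WT replicates 2 and 3 in that table are exchanged against the scanner files. Both were read from the scanner files, whose numbering is used throughout. Which source carries the wrong label is not known.

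Control and outlier spots were left out, log2 was taken and the 75th percentile of each array subtracted. Probes were named with a RefSeq table of GRCm38.p6 (32989 of 56605). A gene was kept if a probe passed the background flag on all complete arrays of 1 group or more, and kept genes were fitted with limma (version 3.58.1, R 4.3.3; lmFit and eBayes, two-sided, Benjamini-Hochberg adjustment over all genes, threshold 0.05, no block). The methods name a moderated test. The brightest probe stood for a gene. All members may be named, and of each related list the 4 largest called changes without overlap and all E2F and RB genes. The members and lists were chosen with earlier results of these data known. The limma fit alone was run on simulated arrays with independent noise, in which few genes were changed. Scaling, the background filter and the choice of probe were not part of that simulation. With 3 arrays against 3, an exact permutation test of 1 gene cannot go below p = 0.1. The number of arrays limits the precision. Alternatives were other scalings, background correction, filters, probe choices, spots, value source, tests, blocks and each array left out.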

Additional observations from a re-analysis of the deposited data

How the results depend on the processing

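The count of members called higher ran from 13 to 16 and that called lower from 16 to 20 when 1 array was left out, and the median of the members from -0.079 to -0.035. Scaling to the array median gave 2 higher and 28 lower members and a median of -0.29. All genes called became 3024 higher and 7954 lower, and the related genes called 8 higher and 61 lower. Quantile normalization moved the median of the members to 0.080. No member was called in the opposite direction in any of the 18 alternative settings fitted. With quantile normalization *Orc3* reached 2-fold, and with median scaling *Orc6* and *Gins2* did. A block for the slide row (WT replicate 2 alone shares that of the IG27 arrays) gave 11 higher and 16 lower and lost *Orc5*, *Mcm4*, *Rfc2*, *Pold1*, *Pold3* and *Tk1*. Normexp, run on the median signal of 5 arrays because the files hold no mean signal, lost *Orc5*, *Cdt1*, *Mcm4*, *Rfc2* and *Pold3*. Some signs changed. Under quantile normalization *Orc2* was 0.079, *Mcm7* 0.093, *Rfc1* 0.12, *Pold2* 0.14, *Pole2* 0.080, *Rpa1* 0.0015 and *Fen1* 0.12, none of them called in limma. Under median scaling *Mcm4* was -0.086, *Cdc45* -0.18, *Rfc3* -0.016, *Lig1* -0.10 and *Chaf1a* -0.18, none called. With normexp *Rfc1* was 0.030, *Pold2* 0.069 and *Fen1* 0.065. With the mean of probes *Orc2* was 0.11 and *Mcm7* 0.083. With the slide row *Rfc1* was 0.040 and *Fen1* 0.042. Leaving out 1 array moved *Rfc1* from -0.083 to 0.0035, *Pold2* from -0.079 to 0.019, *Fen1* from -0.079 to 0.11, *Mcm7* from -0.048 to 0.019 and *Pole2* from -0.12 to 0.070, none of them called. Against the chromosome median *Cdt1* was 0.16, *Mcm5* 0.065, *Gins4* 0.024, *Pola1* 0.17 and *Rpa2* -0.054. The cause of these changes was not tested.

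With the replicate number as a block, 16 members were higher and 18 lower, *Mcm4* was lost and *Gins1* and *Pola2* were gained. In the labels, same-numbered dishes share only a number. Their deviations from the group means correlated with an r of 0.012, 0.040 and 0.076 across genes. IG27 replicates 2 and 3 correlated best with the WT array of their own number, and IG27 replicate 1 with WT replicate 2 (0.059). Such values cannot show whether same-numbered dishes were handled together. The counts for the related genes and for the members outside chromosome 8 were added after seeing the data.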
